A study of Arabidopsis thaliana with 6 samples.

Results

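The lines described here name 1 of 3 copies of the heat-activated retrotransposon *ONSEN* alone, namely *AT1G21945*, *AT3G32415* or *AT3G59720*. They were chosen by the name field that the deposited tracks give each line, a readout of the study itself, and were kept where that field holds exactly 1 of these 3 identifiers. From 2 browser tracks of genomic DNA this took 1972 of 2440 lines, 791 of 896 for library 1 and 1181 of 1544 for library 2. Both libraries were made from *Arabidopsis thaliana* plants of the Col-0 ecotype that carry *nrpd1-3*, a mutation in the largest subunit of the plant-specific RNA polymerase IV, and that were grown at 21 °C on MS medium in continuous light. The labels give a stage of 1 week and a growth of 2 weeks, which conflict. They call both an ABA-tolerant *ONSEN* line 2 and give a parent shifted to 37 °C for 24 h in one field and a parent without stress in another, so no treatment group was assigned. They give neither the number of plants behind a library nor whether the libraries come from separate plants, and no control track was analysed here.

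*ONSEN* is a Ty1/copia-type retrotransposon. It is copied through RNA into extrachromosomal DNA that can enter new sites, and a full-length copy is bounded by long terminal repeats (LTRs) in direct orientation. Heat activates its transcription, and loss of RNA polymerase IV, which makes the precursors of small RNAs that direct DNA methylation, allows new copies to be passed to the progeny of stressed plants. The reference genome has 8 original copies that are similar in sequence, so that a short read often fits several of them.

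A line holds a 50-bp stretch of a chromosome with its strand, and beside it the names of 1 or more original copies. The line length equals that of the longer read of a pair, and the shorter read is 35 bp long. How the names were assigned, and what the strand refers to, are not given in the sources used here. The lines that name 1 copy alone carried 1 colour for each copy, and lines that name several copies shared 1 further colour. Outside the places described next, the score of a line took 1 value for each number of lines at its locus and was not used as a measurement. The read depth of both libraries is unknown.

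The 3 copies are those with the most sequence of their own. Within the complete elements, LTRs included, 1909 of 4900 windows of 35 bp in *AT3G32415* (39.0%) were found in no other copy. The same held for 1284 of 5159 windows in *AT1G21945* (24.9%) and for 584 of 4761 windows in *AT3G59720* (12.3%). The other 5 copies had fewer, from 513 windows in *AT1G48710* to 0 in *AT1G11265*. When windows had to differ from every other copy at more than 2 bases, *AT3G59720* kept 54, fewer than *AT5G13205* with 76 and *AT1G58140* with 73. The order of the 3 copies by windows was not their order by lines. *AT1G21945* was named alone by 774 lines of library 1 and 1147 of library 2, *AT3G32415* by 15 and 28 lines, and *AT3G59720* by 2 and 6 lines. Of the other 5 copies, *AT1G48710* was named alone by 5 lines, *AT3G61330* by 1 line and *AT5G13205* by 1 line, all in library 1, and *AT1G11265* and *AT1G58140* by 0 lines. These counts are what the rule selected and were not tested.

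**Figure D1:**
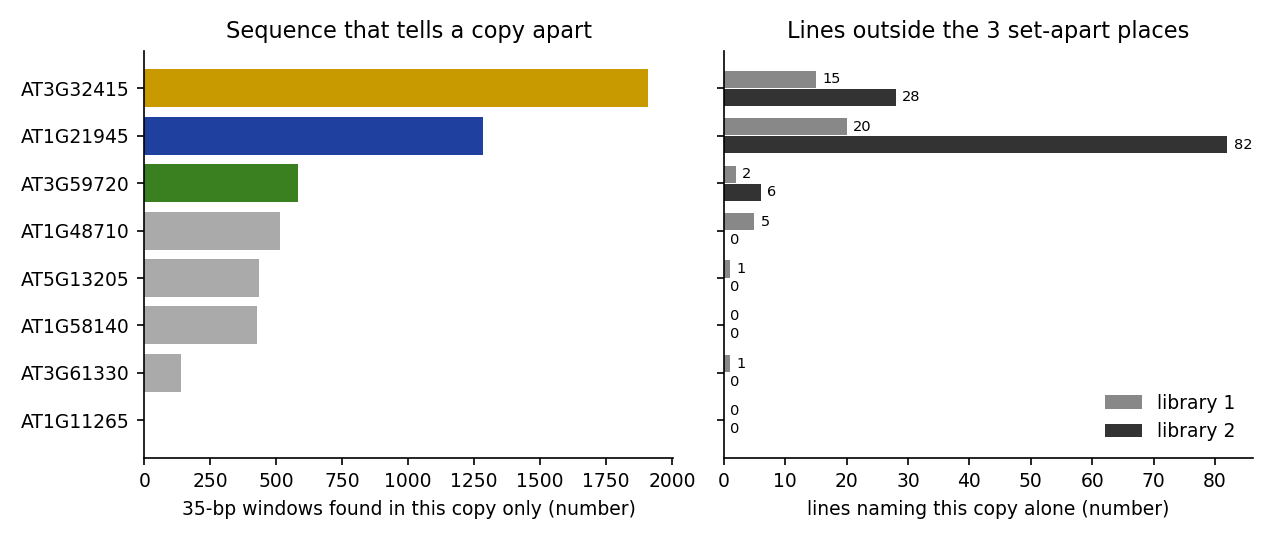
Left, number of 35-bp windows found in only 1 of the 8 original copies, for each copy; right, number of lines naming that copy alone outside the 3 set-apart places, by library (grey, library 1; black, library 2). *AT3G32415* has the most windows (1909) but *AT1G21945* the most lines (20 and 82), and *AT1G11265* has 0 of both.

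The windows were spread differently along the 3 elements. In *AT3G32415*, a copy of 4934 bp on chr3:13369174-13374107 whose LTRs are 98.4% identical, they fell into 42 runs over the whole element, and 1556 of them touched neither LTR. In *AT3G59720*, a copy of 4795 bp on chr3:22059535-22064329 whose LTRs are 99.8% identical, 17 runs lay mostly inside the element, and 441 of 584 windows touched neither LTR. In *AT1G21945*, a copy of 5193 bp on chr1:7717355-7722547 whose LTRs are 97.3% identical, 274 windows touched the 5′ LTR, 138 the 3′ LTR and 269 a stretch of 235 bp that matches the chloroplast genome. All 8 copies are annotated as pseudogenes. Coordinates and printed sequences are those of the RefSeq assembly TAIR10.1, whereas the submitters list TAIR9.

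The chloroplast-derived stretch is at chr1:7719480-7719714 (plus strand) and is shown because most lines that name *AT1G21945* alone lay beside chloroplast-like sequence that continues its pieces. It joins 4 pieces that lie apart in the chloroplast genome. The 3 pieces in capitals match the chloroplast genome next to the sequence at 1 of the 3 places with many lines.
*AT1G21945* stretch: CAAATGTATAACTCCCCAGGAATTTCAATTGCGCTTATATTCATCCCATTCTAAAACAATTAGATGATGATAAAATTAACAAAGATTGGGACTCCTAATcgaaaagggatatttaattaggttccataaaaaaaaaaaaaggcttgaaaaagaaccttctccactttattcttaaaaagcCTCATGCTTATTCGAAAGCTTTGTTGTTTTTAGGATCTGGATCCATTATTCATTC
The third piece, 89 bp at chr1:7719571-7719659 and in lower case except where it overlaps the one before it, is the longest of the 4. Nuclear chloroplast-like stretches within 500 bp of its chloroplast position numbered 17, and 0 of them held lines naming *AT1G21945*. For the other 3 pieces there were 3, 2 and 2 such nuclear stretches, of which 1 each held lines.

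After lines within 500 bp were merged, 3 places in each library held 10 or more lines that all name *AT1G21945* alone. They took 754 lines from library 1 and 1065 from library 2 and were counted apart. The fewest lines at such a place were 17, whereas no other locus at which every line names *AT1G21945* alone held more than 2. The places are the same in both libraries. On chromosome 2, *AT2G07600*, a transcribed pseudogene, held 366 and 372 lines and *AT2G00750*, an annotated transcribed region, held 371 and 651 lines, all on the minus strand. On chromosome 3, *AT3G33004*, a transcribed pseudogene, held 17 and 42 lines, all on the plus strand. The 50 bp of the reference at the most used start of library 2 are given for each place in the direction of the line's strand, as an example of the sequence there. At *AT2G07600* the most used start of library 1, chr2:3189069, was another one and held 32 lines, against 16 at the printed start in library 2. At *AT2G00750* it was also another one, chr2:9711481, with 47 lines, against 57 at the printed start in library 2. No line of library 1 began at the printed start of these places. At *AT3G33004* the printed start and chr3:13540162 each held 3 lines of library 1, the most there.
*AT2G07600*, chr2:3189310-3189359, minus strand: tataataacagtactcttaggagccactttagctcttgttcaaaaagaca
*AT2G00750*, chr2:9711502-9711551, minus strand: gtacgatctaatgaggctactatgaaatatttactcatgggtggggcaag
*AT3G33004*, chr3:13540163-13540212, plus strand: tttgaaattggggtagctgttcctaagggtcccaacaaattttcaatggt

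Lines at these places did not stack on a single position. At *AT2G07600*, 102 different starts were used in library 1 and 117 in library 2, of which 82 were shared. At *AT2G00750* the numbers were 30 and 33, with 27 shared. The most used start there differed between libraries. It held 47 lines in library 1 (12.7%, chr2:9711481) and 57 in library 2 (8.76%, chr2:9711502). At *AT3G33004* 11 starts were used in each library, with 7 shared. The libraries differed in shape at *AT2G07600*. Starts more than 220 bp to the right of the leftmost one held 96 lines of library 2 (25.8%) and 0 of library 1. At *AT2G00750* starts within 10 bp of the leftmost one held 123 lines of library 1 (33.2%) and 42 of library 2 (6.45%).

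The direction of the lines relative to the matching piece also differed between places. At *AT2G00750* every line pointed along its strand toward the chloroplast position of the nearest piece, which lay 111 to 146 bp ahead in library 1 and 115 to 161 bp in library 2. At *AT3G33004* this held for 16 of 17 lines in library 1 and 42 of 42 in library 2, with the piece 26 to 136 and 114 to 138 bp from the lines. At *AT2G07600* the piece lay ahead for 82 lines, behind for 255 and under the first base of the line for 29 in library 1, against 165, 161 and 46 in library 2. These values follow from the lines that the rule selected and were not tested.

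There remained 153 lines. The 37 of library 1 lay at 27 loci and the 116 of library 2 at 61 loci. *AT1G21945* had 20 lines at 20 loci in library 1 and 82 lines at 51 loci in library 2. *AT3G32415* had 15 lines at 5 loci and 28 lines at 8 loci, with up to 10 and 11 lines at a single locus. *AT3G59720* had 2 lines at 2 loci and 6 lines at 6 loci. No member locus of library 1 lay within 500 bp of any of the 160 loci of library 2 outside the 3 places, nor within 2000 bp of a member locus of library 2. No such count is given for the other 62 loci of library 1, so that this cannot be read as a trait of member loci. Tandem repeat clusters, defined only as loci whose merged lines span more than 1000 bp, held 68 of the 153 lines (44.4%), with 10 from library 1 and 58 from library 2. The same loci held 258 of the 468 lines outside the 3 places that name no member copy alone (55.1%), so that the share was not higher among member lines. Another 2 lines lay in rRNA genes, 4 beside an original element, 3 within 500 bp of other *ONSEN*-like sequence and 2 within 500 bp of organelle-like sequence. The last group, 74 lines (48.4%), lay elsewhere. These kinds of place were defined with the lines known.

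**Figure D2:**
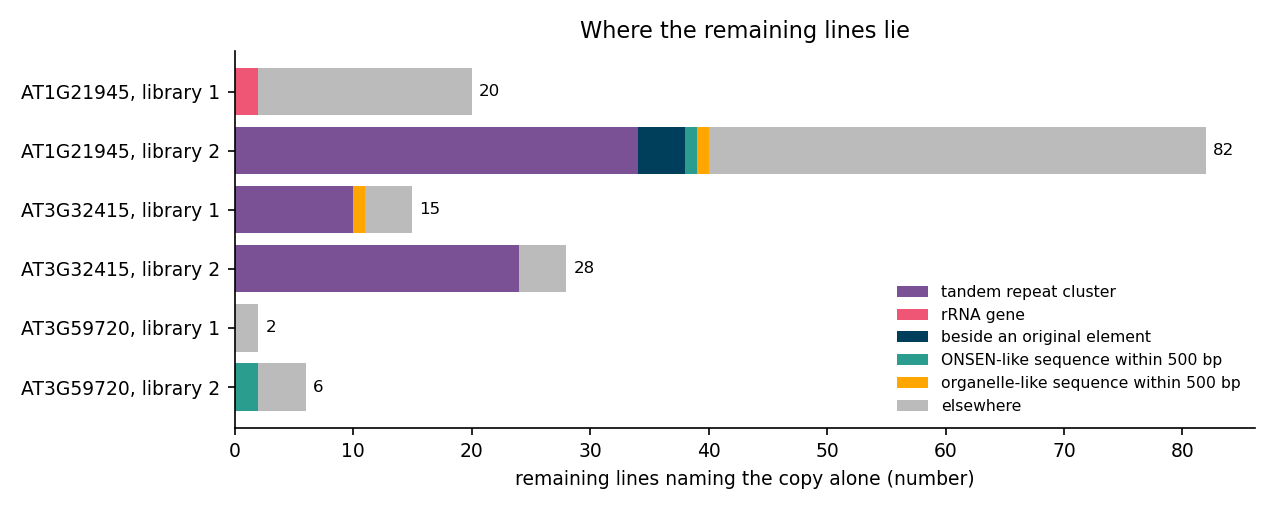
Number of remaining lines naming each copy alone, by library (bars), split by the kind of place where they lie (colours). Tandem repeat clusters hold 34 of 82 lines of *AT1G21945* in library 2 and 34 of 43 lines of *AT3G32415* in both libraries, and 0 lines of *AT3G59720*.

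*AT3G32415* was named mainly in tandem repeats near the centromeres, where the satellite of *Arabidopsis* forms long arrays. In library 1, 10 of its 15 lines lay in 1 locus of 38 lines at chr3:13588963-13592525. All 10 were on the plus strand, and the 50 bp of the reference under them were the same at every line. In library 2, 24 of its 28 lines lay in 4 loci, with 7 lines at chr2:3616112-3622621, 11 at chr4:3950608-3955997, 1 at chr5:11701978-11711019 and 5 at chr5:11730499-11735134. All 24 were on the minus strand. Of these 24 lines, 23 covered the same stretch of the repeat in either orientation, within 10 bp and 5 differences, although the loci lie on 3 chromosomes.

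*AT1G21945* was named alone in such clusters in library 2 only. It had 34 lines, with 7 at the chromosome 2 locus, 2 and 7 at a pair of chromosome 4 loci and 15 and 3 at the chromosome 5 loci, and 0 lines in the library 1 cluster. The second chromosome 4 locus, chr4:4005040-4011697, was the only cluster with lines on both strands, 3 plus and 4 minus, and it held 0 lines of *AT3G32415*. Over all clusters, 45 of 57 spacings (78.9%) between neighbouring lines of the same copy and strand were within 5 bp of a multiple of 178 bp, the shorter of the commonest spacings. Of the 67 lines with another line of the same copy, strand and locus, 64 matched such a line with at most 2 differences.

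The commonest sequences under these lines are printed to show that *AT3G32415* went with a stretch of the repeat unit that differed between libraries. *AT1G21945* allows no such comparison, since its cluster lines are all from library 2. The clusters of the libraries lie at different loci, so that library and locus cannot be told apart. Capitals in the first pair mark the 28 bases that the commonest *AT3G32415* position of library 1 shares with the commonest *AT1G21945* position of library 2.
*AT3G32415*, library 1, 10 of 10 lines, chr3:13589346-13589395, plus strand: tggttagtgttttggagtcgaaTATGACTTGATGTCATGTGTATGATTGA
*AT1G21945*, library 2, 11 of 34 lines, chr4:3953610-3953659, minus strand: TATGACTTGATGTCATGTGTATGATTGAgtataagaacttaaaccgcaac
Capitals in the second pair mark 48 bases of the commonest *AT3G32415* position of library 2 that are found in reverse complement in the next most common one.
*AT3G32415*, library 2, 8 of 24 lines, chr2:3616391-3616440, minus strand: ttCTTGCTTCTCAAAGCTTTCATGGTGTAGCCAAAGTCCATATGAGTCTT
*AT3G32415*, library 2, 4 of 24 lines, chr4:3950843-3950892, minus strand: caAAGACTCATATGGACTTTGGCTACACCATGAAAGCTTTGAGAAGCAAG
The *AT3G32415* sequences of the 2 libraries shared no run longer than 6 bases on either strand. With up to 2 mismatches, the sequence of library 1 was found at 649 positions of the genome and the commonest of library 2 at 190.

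**Figure D3:**
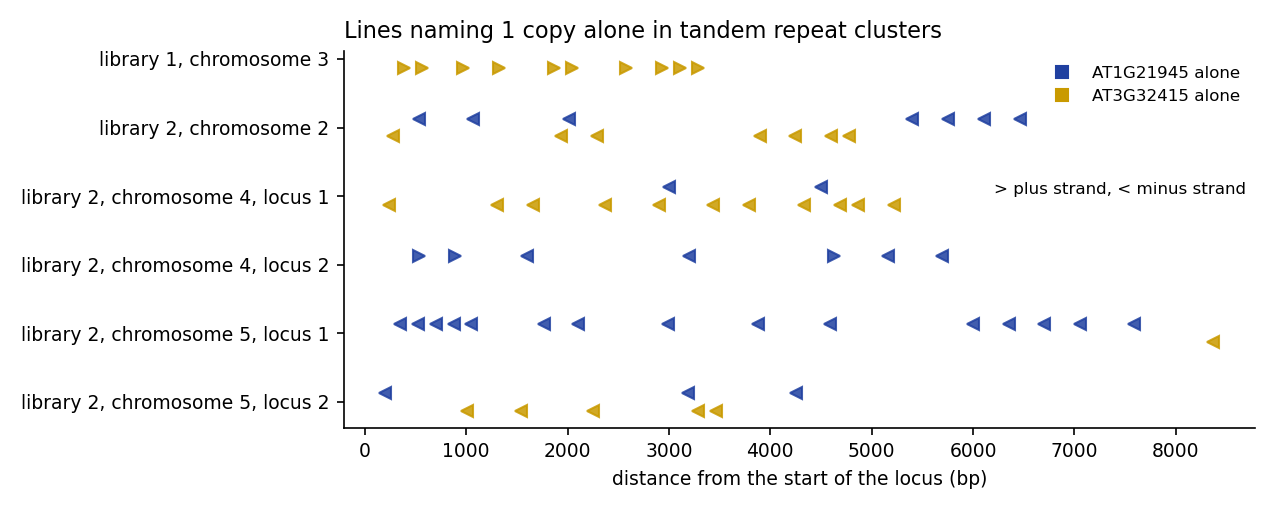
Position of each line that names 1 copy alone in the 6 tandem repeat clusters (rows), as distance in bp from the start of the locus; blue is *AT1G21945*, yellow *AT3G32415*, and the triangle points along the strand. The library 1 cluster holds 10 plus-strand lines of *AT3G32415* and 0 of *AT1G21945*.

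Of the remaining lines outside the clusters, 4 lay within 1000 bp of an original copy, all in library 2, and all named *AT1G21945* alone although it is not the copy beside them. Each lay just beyond the 3′ LTR of that other copy and on the same strand as the copy, so that it points away from the element. The line at chr1:21524925-21524974 was 18 bp from *AT1G58140*, in an intron of *AT1G58130*, a transcribed F-box pseudogene. The line at chr1:3785754-3785803 was 33 bp from *AT1G11265*, in a coding exon of *AT1G11270*, which encodes an F-box protein. The line at chr5:4207998-4208047 was 35 bp from *AT5G13205*, in a coding exon of *AT5G13200*, which encodes a GRAM domain protein. The line at chr3:22695464-22695513 was 52 bp from *AT3G61330*, in an untranslated region of *AT3G61320*, which encodes a bestrophin-like protein. Among the 468 lines that do not name a member copy alone, outside the 3 places, 1 was within 1000 bp of an element, 663 bp beyond the 3′ end of *AT1G11265*.

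The reference sequences under 3 of these 4 lines are given in the direction of the strand, since they lie at the outer edges of copies that the lines do not name.
Beside *AT1G58140*: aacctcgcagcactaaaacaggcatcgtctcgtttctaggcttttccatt
Beside *AT1G11265*: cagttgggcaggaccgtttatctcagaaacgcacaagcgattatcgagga
Beside *AT5G13205*: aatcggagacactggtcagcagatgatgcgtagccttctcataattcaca
The 3′ ends were compared for all but *AT1G58140* of the copies beside these lines. The last 100 bp of *AT1G21945* (chr1:7722448-7722547) differ from those of *AT1G11265* (chr1:3785621-3785720, both plus strand) at 1 base, in capitals, and the 64 bases after it are the same. That base makes 35 of the 66 windows of 35 bp there unique to *AT1G21945*.
*AT1G11265*: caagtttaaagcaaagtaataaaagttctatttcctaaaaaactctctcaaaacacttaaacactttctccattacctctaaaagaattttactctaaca
*AT1G21945*: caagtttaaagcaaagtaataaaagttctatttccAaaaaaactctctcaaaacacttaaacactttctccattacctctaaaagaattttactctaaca
Those of *AT3G61330* differ from *AT1G11265* at 0 of 100 bases and those of *AT5G13205* at 1 base.

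A further 2 lines of library 2 lay within 10000 bp of an original copy, both upstream of *AT1G21945*. A plus-strand line naming *AT1G21945* at chr1:7714534-7714583 was 2771 bp from the element and 74 bp from *AT1G21930*, and it was the only line within 10000 bp of the copy it names. It lay 115 bp from an *ONSEN*-like stretch of 447 bp, chr1:7714699-7715145, that aligned to all 8 copies. It matched the 3′ end of *AT1G21945* at 98.7% identity over 448 columns and that of *AT1G11265* and *AT3G61330* at 98.4% each. Against the 5′ ends, over 440 columns, the order was the other way. There *AT1G11265* and *AT3G61330* matched at 98.9% each and *AT1G21945* at 96.8%, so that the stretch was not clearly closest to *AT1G21945*. A minus-strand line naming *AT3G59720* at chr1:7711547-7711596 was 5758 bp from the element, and the nearest gene was *AT1G21928*, a thionin family gene. Outside the clusters, the 23 *AT1G21945* lines on chromosome 1 were a median of 7.60 Mb from that copy. *AT3G32415* had 1 line outside the clusters on its own chromosome, at 5.89 Mb, whereas the 10 lines of its library 1 cluster lay 215669 to 218572 bp from it, and *AT3G59720* had 2, the nearer at 7656767 bp.

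All 8 lines of *AT3G59720* lay outside the clusters. In library 1, 1 was in an intron of *REM1*, which encodes a B3-type transcription factor, and 1 was 386 bp from the peroxidase gene *AT2G38380*. In library 2, 1 was in an intron of *AT3G24180*, a beta-glucosidase gene, 1 in a coding exon of *AT4G27610* and 1 lay 526 bp from *AIL5*, a gene of the AP2 family of transcription factors. The other 3 lay upstream of *AT1G21945*, as described, and at 2 loci where the line itself is *ONSEN*-like sequence. Capitals mark the longest run of these last 2 lines that is found in an original copy.
*AT3G59720*, chr3:14403188-14403237, plus strand, at the edge of the pseudogene *AT3G42245*: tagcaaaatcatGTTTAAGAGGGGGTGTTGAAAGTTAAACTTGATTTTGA
*AT3G59720*, chr4:9320355-9320404, plus strand, 540 bp from the HSP20-like gene *AT4G16545*: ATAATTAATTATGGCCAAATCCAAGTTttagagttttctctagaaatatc
These runs of 38 and 27 bases are each found in 7 of the 8 copies, so that the printed bases do not tell *AT3G59720* from the others. The first was at a locus of 11 lines and the second at a locus of 3 lines, and every other line there names several copies.

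The other 83 of the 85 lines outside the clusters shared no run longer than 14 bases with any original copy, with a median of 9 bases. The 50 bp of 81 of the 85 lines were found exactly once in the nuclear and organelle genomes. The exceptions include 2 lines of library 1 that name *AT1G21945* in the 18S rRNA genes *AT2G01010* and *AT3G41768*, at chr2:4072-4121 and chr3:14198043-14198092. They share the same 50 bp, which makes these 2 lines a single sequence of the repeated rRNA gene.
rRNA genes, minus strand: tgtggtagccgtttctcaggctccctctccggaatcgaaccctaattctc
The exceptions also include a line naming *AT1G21945* in the transcribed pseudogene *AT2G07688*, in library 2, and a line naming *AT3G32415* in *AT2G07706*, in library 1, both in organelle-like sequence of chromosome 2.

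By gene position, 37 of the 85 lines were in exons, 20 in introns and 28 between genes. Of the exon lines, 20 were in coding sequence, 10 in untranslated regions and 7 in exons of other gene types. Among lines between genes, 21 were within 1000 bp of a gene, and the median distance was 446 bp. *AT3G59720* had 1 line in an exon, 2 in introns and 5 between genes, against 31, 16 and 21 for *AT1G21945* and 5, 2 and 2 for *AT3G32415*. Only 3 loci outside the clusters held more than 1 line naming a member copy, and at each the 2 lines were identical in position and strand. They were in coding exons of *AT2G07280* (*AT3G32415*, library 1) and of *AT1G44120*, which encodes CELLULOSE SYNTHASE INTERACTIVE 2 (*AT1G21945*, library 2), and in an untranslated region of *AT1G70790*, a lipid-binding protein gene (*AT1G21945*, library 2). At these loci a pair of lines adds no second position.

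The loci of 1 line lay in genes of many kinds. In coding exons, lines naming *AT1G21945* were found in *RECQ4A*, which encodes a DNA helicase, *UBC23*, which encodes a ubiquitin-conjugating enzyme, and *ABCG15*, which encodes an ABC transporter, in library 2, and in *CID7* in library 1. In untranslated regions they were found in *NF-YA9*, which encodes a subunit of the nuclear factor Y transcription factor, and *FBH2*, which encodes a basic helix-loop-helix protein, in library 2. Lines naming *AT3G32415* were found in an untranslated region of *UBC35*, which encodes another ubiquitin-conjugating enzyme, and in a coding exon of *CAM9*, which encodes a calmodulin-like protein, both in library 2. These genes were taken in genome order, not for their function. *NCED9*, which encodes an enzyme of ABA synthesis, was not taken in that order. It was noticed after the lines were seen, as the gene nearest to a line naming *AT1G21945* in library 2. Its distance of 2289 bp is far above the median of 446 bp for lines between genes.

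The libraries differed in how the 85 lines were spread over the chromosomes. On chromosome 1, which makes up 25.5% of the genome length, lay 1 of 27 lines in library 1 and 24 of 58 in library 2. Loci of 1 line that name no member copy alone were not as scarce there in library 1, with 15 on chromosome 1 against 8 on chromosome 2. The other chromosomes held 6 or 7 of the 27 lines in library 1 and 5 to 13 of the 58 in library 2. This difference was seen in the data and was not tested.

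Gene position, strand and sequence context were not part of the rule, except that it set the 3 places apart by position and number of lines. Gene position and nearby sequence were compared between the other 88 member loci and the 161 loci at which no line names a member copy alone. A locus counts as a member locus if any of its lines names a member copy alone, so that all 6 tandem repeat clusters are member loci. Whether a position is found once was compared at loci of 1 line only. Strand was compared with a share of 0.5 and between *AT1G21945* and *AT3G59720*. These tests compare loci and not plants, and p-values were adjusted over 5 tests. Of the member loci, 55 (62.5%, 95% exact interval 51.5 to 72.6) had their midpoint in an annotated gene, against 114 of the others (70.8%, 63.1 to 77.7) and 64.1% of the nuclear bases (two-sided Fisher's exact test, p = 0.202, adjusted p = 0.506). The difference was in the same direction in both libraries, 55.6% against 66.1% in library 1 and 65.6% against 73.7% in library 2. At loci of 1 line only, the shares were 65.3% and 70.7% (unadjusted p = 0.447, Fisher's exact test). At loci of 1 line, 73 of 75 member positions (97.3%, 90.7 to 99.7) were found exactly once in the genome, against 144 of 150 others (96.0%, 91.5 to 98.5; p = 0.722, adjusted p = 0.902, Fisher's exact test). Organelle-like or *ONSEN*-like sequence, here with the original copies included, was within 500 bp of 9 member loci (10.2%, 4.78 to 18.5). It was that close to 11 others (6.83%, 3.46 to 11.9, p = 0.342, adjusted p = 0.570, Fisher's exact test). Of the nuclear bases, 0.722% lie that close, a share of single bases and not of loci, some of which span more than 1000 bp. The rule had set the 3 places apart, and all of them lie in chloroplast-like sequence. Counted among the member loci in each library, they gave 15 of 94 (16%, unadjusted p = 0.0304, Fisher's exact test), an alternative added after the lines were seen. The rule fixed that rise in advance, since these places could join only the member loci, and each was counted once per library. No conclusion is drawn from that p-value. Without the 3 places none of these differences passed the test, and the intervals of both groups overlapped in each.

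The plus strand held 38 of the 75 member lines at loci of 1 line (50.7%, 38.9 to 62.4; two-sided exact binomial test against 0.5, p = 1.00, adjusted p = 1.00). The libraries lay on opposite sides of that share, with 8 of 23 lines in library 1 (34.8%, p = 0.210 by the exact binomial test) and 30 of 52 in library 2 (57.7%, p = 0.332 by the exact binomial test). *AT1G21945* had 35 of 62 lines on the plus strand (56.5%, 43.3 to 69.0) and *AT3G59720* had 1 of 6 (16.7%, 0.421 to 64.1), a difference that did not pass Fisher's exact test (p = 0.0923, adjusted p = 0.462). In library 2 alone the shares were 28 of 44 and 0 of 4 (unadjusted p = 0.0249, Fisher's exact test), and in library 1, 7 of 18 and 1 of 2 (p = 1.00, Fisher's exact test).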

How the data were processed

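The authors made SOLiD 4 paired-end libraries from genomic DNA (50 and 35 bp reads) and deposited 1 browser track per library, with positions and a score on each line. The submitters' processing notes list Bowtie 0.12.8 and TAIR9. Filters, the meaning of the strand and the rule behind the names and the score are not given in the sources used here. Of 6 samples in the series, 4 were not analysed here.

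Positions were read on TAIR10.1 with its RefSeq annotation, from which all sequences come. All 2440 lines ended within its chromosomes and covered no undetermined base. TAIR10 kept the chromosome sequences of TAIR9. The coordinates were not checked further. Lines within 500 bp were merged in each library. Loci of 10 or more lines that all name *AT1G21945* alone were set apart. Element limits were taken from the LTR pairs found with BLAST+ 2.17.0, and so were organelle-like alignments (50 bp and 85% identity or more, E-value limit 1e-05) and *ONSEN*-like ones (50 bp or more). Sequences of 50 bp were searched with up to 2 mismatches by exact seeds in place of BLAST, with Python 3.11.15. Tests were Fisher's exact test and the exact binomial test (scipy 1.17.1), with Benjamini-Hochberg adjustment. Merging, window, mismatch and search steps were tested on simulated data.

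Genes named by rule were those at loci with 2 or more member lines, within 10000 bp of a copy or of a copy with 10 or fewer loci. The first 4 loci per chromosome in exons of protein-coding genes with a symbol were added. Other genes, among them *NCED9*, were named outside this rule. The copies, lists and tests were chosen with earlier results of these data known.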

Additional observations from a re-analysis of the deposited data

How the results depend on the processing

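No paired analysis was possible because the tracks form a single group. Of 55 alternatives over 12 results, 42 kept the direction and the side of the threshold or moved a count by less than 1.5 times. Leaving out each library in turn gave 37 to 116 remaining lines, 0 to 4 lines within 1000 bp and 0 to 6 within 10000 bp of an original copy. For single-line loci it gave a plus-strand share of 34.8% to 57.7%, of 38.9% to 63.6% for *AT1G21945* against *AT3G59720*, which passed the threshold unadjusted without library 1 (p = 0.0249, Fisher's exact test) and turned in direction without library 2, and 95.7% to 98.1% for positions found once, which turned without library 2. The share near organelle-like or *ONSEN*-like sequence was 3.70% to 13.1% and also turned without library 2. With the 3 places set apart included, an alternative chosen after seeing the data, it was 16% (unadjusted p = 0.0304, Fisher's exact test). The rule fixed that rise in advance, so that it tests nothing. Leaving out each library gave a share of loci in genes of 55.6% to 65.6%. Merging within 100 bp, which splits the large clusters into smaller loci, turned the plus-strand share to 44.1%. Counting only windows more than 2 mismatches from every other copy left 300 in *AT1G21945*, 307 in *AT3G32415* and 54 in *AT3G59720*. The cause of the differences between libraries was not tested. Depth is unknown, and 8 lines of *AT3G59720* allow no firm share.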
